A study of Mus musculus with 7 samples.

Results

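The genes described here make the lipids of membranes and myelin. They are 33 gene symbols of the deposited count table, matched by name. The list was chosen with earlier results of these data known. It holds 17 enzymes of cholesterol synthesis and 4 regulators or carriers of sterols. It also holds 9 genes of fatty acid synthesis, desaturation and elongation, and 3 genes of galactolipid synthesis. In RefSeq on GRCm38.p6, the assembly of build mm10, Srebf2 lies on chromosome 15, 82147269 to 82205379, Mvk on chromosome 5, 114444264 to 114460591, Hmgcs1 on chromosome 13, 119690351 to 119708260, Insig1 on chromosome 5, 28071412 to 28078662, Scd1 on chromosome 19, 44394450 to 44407709 and Scd2 on chromosome 19, 44293676 to 44306864. All 33 were among the 35976 symbols of the table, and all 33 were among the 14412 genes that passed the filter on low counts.

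The libraries were made from cells of the amygdala of male C57BL/6J mice, isolated as neurons with a magnetic (MACS) kit. In 4 libraries the AAV (adeno-associated virus) targeted the Rosa locus as a control (sgRosa), and in the other 3 it targeted Nr2f2 (sgNr2f2), which encodes a nuclear receptor. Cas9 was under the Hsyn promoter, which is active in neurons, in both groups. Both groups expressed the constructs for more than 2 weeks, then had 7 days of tube restraint. Fear conditioning took 1 further day, and extinction training another 3, so no unstressed animals are compared. Each library was built from 5 ng of total RNA. The labels give no age and do not say whether a library is 1 animal or a pool, so a p-value reflects only how these samples vary, which may in part be technical.

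Cells make cholesterol from acetyl-CoA by way of mevalonate, isoprenoids, squalene and lanosterol. The transcription factor SREBP-2, product of Srebf2, drives the genes of this route when membrane sterol is low, and SREBP-1, product of Srebf1, drives fatty acid genes. Scap carries both precursors from the endoplasmic reticulum to the Golgi for cleavage, and the Insig proteins hold them back when sterol is plentiful. In brain, cholesterol is made locally because lipoproteins hardly cross the blood-brain barrier. Oligodendrocytes make much of it for myelin, together with very long acyl chains and the galactolipids galactosylceramide and sulfatide.

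None of the 33 genes passed the test between sgNr2f2 and sgRosa (edgeR quasi-likelihood test, Benjamini-Hochberg adjusted p under 0.05 over all genes), and 0% of the 14412 genes tested passed. At an unadjusted p under 0.05 there were 0 of the 33 genes and 721 of all genes (5%). DESeq2 and limma-voom also called 0 of the 33. Over all genes limma-voom called 0, and DESeq2 called 7 (0.0499%), 2 of them higher (0.0143%) and 5 lower (0.0357%). Levels are given as CPM, counts relative to a library total scaled by TMM, and fold changes as the log2 ratio of sgNr2f2 to sgRosa. In bulk RNA, fewer cells of a type and less RNA per cell cannot be told apart.

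Library quality bears on every value that follows. Total counts were 6266897 in sgRosa replicate 4 and ran from 15335076 to 20928677 in the other 6. sgRosa replicate 4 also stood apart in its profile, with a mean correlation of 0.723 with all other libraries. For the rest that mean was 0.876 to 0.900, their correlation with this library included. sgRosa replicate 4 had the lowest level of 20 of the 33 genes (35.8% of all genes were lowest there) and the highest level of 7 (32.7% of all genes). Results are therefore given with and without it. Nr2f2 itself had 19.8, 16.5, 11.3 and 13.1 CPM in the sgRosa libraries, in replicate order, and 11.9, 11.997 and 11.6 CPM under sgNr2f2, a log2 fold change of -0.36 (SE 0.37, adjusted p = 0.905). The groups overlapped for it, and a Cas9 edit need not lower a transcript count.

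The label of the cells as neurons was checked against markers. All 14 neuronal markers were measured, but together they held 0.0488 to 0.246% of the counts in sgRosa and 0.0535 to 0.0648% in sgNr2f2. The 18 oligodendrocyte markers held 13.7, 29.8, 29.2 and 2.74% of sgRosa counts, in replicate order, and 30.2, 18.0 and 32.4% of sgNr2f2 counts. None of the 18 was at 0 in any library, 17 of them had a positive log2 fold change, and the median was 0.50 (0.22 without sgRosa replicate 4). An exact two-sided permutation test of their log2 summed CPM between the groups gave p = 0.4. Markers of 4 other cell types had medians below 0 in both fits: 12 of 14 neuronal markers lay below 0 (median log2 fold change -0.70, and -0.22 without sgRosa replicate 4), as did 6 of 10 astrocyte markers (-0.66 and -0.57), all 6 tested of pericytes and smooth muscle (-1.25 and -1.06) and all 5 tested of erythroid cells (-2.64 and -0.61). For precursors, endothelium and microglia the medians were -0.13, -0.0048 and -0.026, and 0.096, 0.35 and 0.031 without that library. None of these markers passed the edgeR test, and their part in the lipid genes was not tested. Erythroid genes held 3.70% in sgRosa replicate 4 and 0.0958 to 0.316% elsewhere. Over the 7 libraries, markers of oligodendrocyte precursors held 0.116 to 0.552%, of endothelium 0.279 to 0.967%, of astrocytes 0.0692 to 0.212%, of pericytes and smooth muscle 0.00806 to 0.0467% and of microglia 0.00298 to 0.00496%. Cx3cr1 and P2ry12 of microglia and Kcnj8 and Abcc9 of pericytes were at 0 in at least 1 library. Because much of the RNA carried an oligodendrocyte signature, the genes below are described as levels in a mixed sample.

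Per kilobase of merged exon, Scd1 was the most abundant of the 33 genes in both groups, with 221 CPM per kb in sgRosa and 354 in sgNr2f2. In the order of sgRosa, next came Scd2 (52.5 and 57.4), Hmgcs1 (48.7 and 47.1), Elovl1 (33.3 and 22.3), Cers2 (25.8 and 35.4) and Ugt8a (18.6 and 26.8). Tm7sf2 was the lowest in both groups (0.533 and 0.343), followed by Acaca (0.657 and 0.958). The order below Scd1 rested in part on sgRosa replicate 4. Over sgRosa replicates 1 to 3, Hmgcs1 (64.2 CPM per kb) lay above Scd2 (56.1), followed by Cers2 (34.1), Ugt8a (24.6), Elovl5 (21.4), Elovl7 (21.2) and Sc5d (18.4), and Elovl1 had 16.1. The plot of levels shows each library as log2 CPM, not divided by length.

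**Figure D1:**
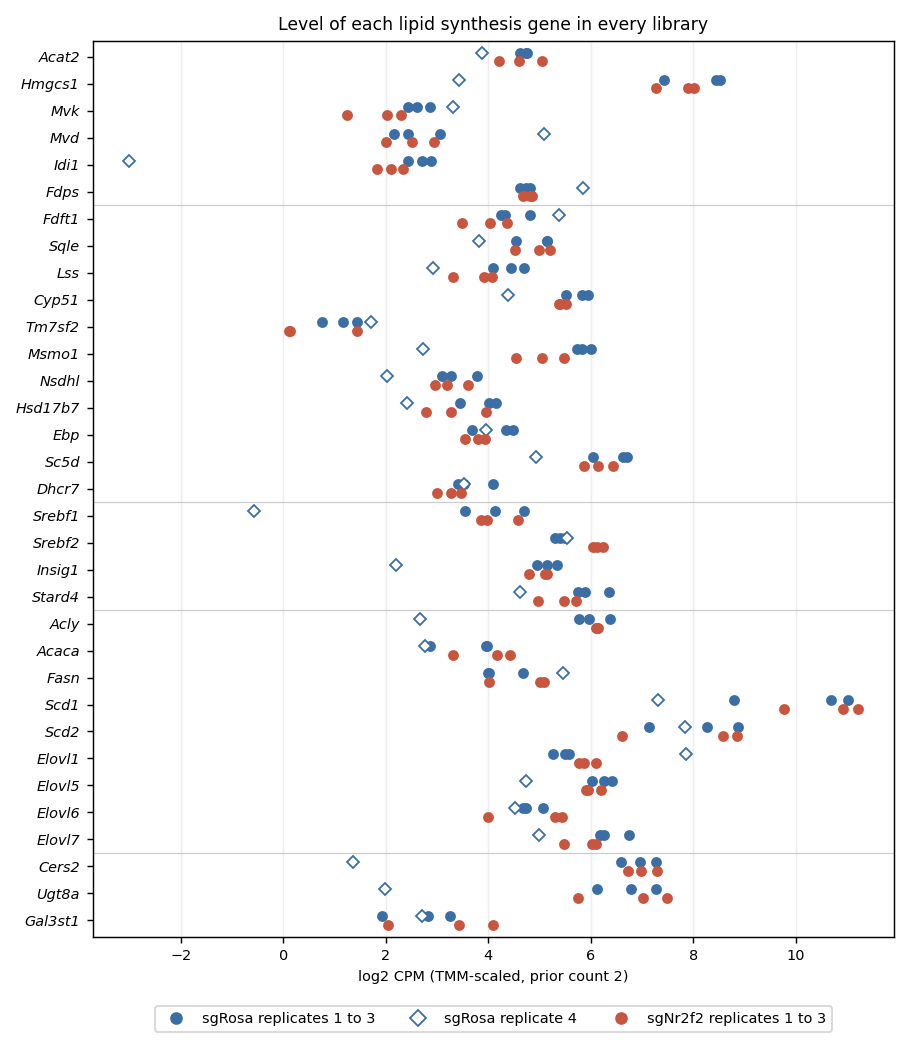
Level of each of the 33 genes in every library, as log2 CPM (TMM-scaled, prior count 2) on the horizontal axis, with genes in rows grouped by role. Filled blue points are sgRosa replicates 1 to 3, open diamonds sgRosa replicate 4 and red points the 3 sgNr2f2 libraries. The diamond is the lowest point of 20 genes and the highest of 7, while for Srebf2 all red points lie to the right of all sgRosa points.

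Promoter sequence is shown for 4 genes of sterol control, since Srebf2 and most enzymes of the pathway lay on opposite sides of 0. Hmgcs1 is an early enzyme of the mevalonate route. Mvk is the enzyme whose groups did not overlap, Srebf2 is the regulator whose groups did not overlap, and Insig1 is the feedback gene. The bases are the 250 upstream of a RefSeq transcript start, 5′ to 3′ on the plus strand, from RefSeq on GRCm38.p6. Capitals mark the sterol regulatory element TCACNCCAC, the E-box CACGTG and the CCAAT box (CCAAT, or ATTGG where it lies on the other strand).
Hmgcs1, chr13:119690101-119690350: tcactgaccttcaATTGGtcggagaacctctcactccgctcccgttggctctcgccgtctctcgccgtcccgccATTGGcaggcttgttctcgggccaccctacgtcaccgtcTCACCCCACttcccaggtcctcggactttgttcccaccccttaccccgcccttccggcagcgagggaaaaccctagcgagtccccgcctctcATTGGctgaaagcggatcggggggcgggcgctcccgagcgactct
Mvk, chr5:114444019-114444268: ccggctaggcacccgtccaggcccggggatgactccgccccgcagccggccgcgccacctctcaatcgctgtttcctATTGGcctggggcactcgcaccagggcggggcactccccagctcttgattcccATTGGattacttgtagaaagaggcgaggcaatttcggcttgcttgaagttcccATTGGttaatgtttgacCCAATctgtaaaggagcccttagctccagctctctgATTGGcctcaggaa
Srebf2, chr15:82147019-82147268: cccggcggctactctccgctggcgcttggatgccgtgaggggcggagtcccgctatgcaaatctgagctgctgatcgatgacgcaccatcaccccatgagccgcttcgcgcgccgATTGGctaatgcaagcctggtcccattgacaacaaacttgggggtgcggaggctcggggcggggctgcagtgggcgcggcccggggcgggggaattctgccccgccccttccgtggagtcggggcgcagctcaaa
Insig1, chr5:28071162-28071411: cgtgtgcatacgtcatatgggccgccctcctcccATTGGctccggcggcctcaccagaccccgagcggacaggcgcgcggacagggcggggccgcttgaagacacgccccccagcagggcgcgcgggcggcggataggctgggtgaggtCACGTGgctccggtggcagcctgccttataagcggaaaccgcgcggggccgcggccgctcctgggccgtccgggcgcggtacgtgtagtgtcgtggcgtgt

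These motifs were searched on both strands in the window from 250 bases before to 50 after each RefSeq start. RefSeq windows were matched for 27 of the 33 genes (35 windows). Only the Hmgcs1 window held TCACNCCAC, starting 137 bases before the start, as did 1.24% of all 32851 windows. CACGTG lay in the windows of Insig1 (101 bases before the start), Sc5d, Dhcr7, Hsd17b7, Elovl5 and Cers2, which is 6 of 35 windows (17.1%) against 7.15% of all windows and 9.57% of those of the genes tested. CCAAT lay in 25 of 35 windows (71.4%) against 37.4% of all windows, and in 13 of the 16 windows of the sterol enzymes. The GC box GGGCGG lay in 25 of 35 windows (71.4%), against 35.7% of all windows and 60.1% of those of the genes tested. A match is a description of the letters in these windows, and the absence of one says nothing about binding by any factor.

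The mevalonate steps were represented by Acat2 (acetoacetyl-CoA thiolase), Hmgcs1 (HMG-CoA synthase), Mvk and Mvd (mevalonate kinase and diphosphomevalonate decarboxylase), Idi1 (isopentenyl-diphosphate isomerase) and Fdps (farnesyl diphosphate synthase). Of the 6, 5 had a log2 fold change below 0, with a median of -0.25, beside 56.2% of all genes below 0 and a median of -0.11 over all genes. Mvk had 7.17, 5.25, 5.99 and 9.81 CPM in sgRosa, given here and below in replicate order, and 2.24, 4.77 and 3.93 CPM in sgNr2f2. Every sgNr2f2 library lay below every sgRosa library. In all, 562 genes (3.9%) had groups that did not overlap with sgNr2f2 lower, and Mvk was 1 of the 33 genes here among them. Its mean was 7.06 ± 2.00 CPM in sgRosa (SD, n = 4) and 3.65 ± 1.29 CPM in sgNr2f2 (n = 3). This gave a log2 fold change of -0.95 (SE 0.48, 95% confidence interval -2.01 to 0.12, edgeR adjusted p = 0.868), and -0.75 without sgRosa replicate 4 (adjusted p = 0.535). An exact two-sided permutation test of the 7 values gave p = 0.0286, the smallest that 4 against 3 libraries allow. That p was not adjusted over genes, and it reads the same layout as the lack of overlap.

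Mvd had 8.25, 5.31, 4.35 and 33.9 CPM in sgRosa and 3.88, 5.55 and 7.57 CPM in sgNr2f2. The high value belonged to sgRosa replicate 4, at 6.25 times the median of the other 6 libraries, and the other sgRosa libraries overlapped sgNr2f2. Its log2 fold change of -1.18 (SE 0.73, adjusted p = 0.868) was -0.08 without that library. Hmgcs1, the most abundant gene of the mevalonate steps, had 172, 347, 366 and 10.6 CPM in sgRosa and 239, 154 and 257 CPM in sgNr2f2. sgRosa replicate 4 was lowest and sgRosa replicates 2 and 3 were highest, with all 3 sgNr2f2 libraries inside that range. Its log2 fold change was -0.05 (SE 0.86, adjusted p = 0.998), and -0.45 (SE 0.38) without sgRosa replicate 4.

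The other mevalonate genes also had sgRosa replicate 4 at an extreme. Acat2 had 23.2 ± 5.83 and 25.2 ± 7.25 CPM in the sgRosa and sgNr2f2 groups (SD, n = 4 and 3), with the library at 14.6 CPM. Fdps, which makes the precursor of both squalene and protein prenyl groups, had 34.3 ± 15.8 and 27.4 ± 1.84 CPM, with 57.9 CPM in that library against 24.6 to 29.0 CPM in the other 6. Idi1 had 0 counts there, where 3 counts would be 0.409 CPM, and 3.45 to 7.28 CPM elsewhere. Without that library the sgNr2f2 levels of Idi1 lay wholly below those of sgRosa, with a log2 fold change of -0.59 (SE 0.35, adjusted p = 0.582).

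The other 11 enzymes take farnesyl diphosphate to cholesterol, by way of squalene (Fdft1, Sqle), ring closure to lanosterol (Lss) and then demethylation, reduction and isomerisation of the sterol (Cyp51, Tm7sf2, Msmo1, Nsdhl, Hsd17b7, Ebp, Sc5d and, last, Dhcr7). Of these 11, 9 had a log2 fold change below 0 and the median was -0.38. Without sgRosa replicate 4 all 11 lay below 0, with a median of -0.46 against -0.03 over all genes, and 52.5% of all genes then lay below 0. Over both sets of steps, 14 of 17 sterol enzymes lay below 0 with all libraries (median -0.32), and 16 of 17 (median -0.45) without sgRosa replicate 4. That count was not fixed by the scaling or the libraries, and is given here with the share of all genes below 0 in the same fit. It was 10 under limma-voom (52.6% of all genes), 10 without sgRosa replicate 2 (52.8%) and 10 without sgRosa replicate 3 (54.2%). It was 11 without sgNr2f2 replicate 2 (57.8%) and 17 on library size alone (69.2%).

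Fdft1, squalene synthase, had 20.1, 27.9, 18.8 and 41.6 CPM in sgRosa and 20.6, 11.0 and 16.3 CPM in sgNr2f2. sgRosa replicate 4 was highest and sgNr2f2 replicate 2 lowest, and sgNr2f2 replicate 1 lay inside the sgRosa range. Its log2 fold change was -0.76 (SE 0.43, adjusted p = 0.868), and -0.48 without sgRosa replicate 4. The gene overlaps Ctsb by 774 bases, and Ctsb had 39946 counts over the 7 libraries against 2332 for Fdft1. The strand setting of the counting is not given in the sources used here, so reads of the overlap could have gone to either gene.

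Sqle, squalene epoxidase, had 35.1, 35.2, 23.1 and 14.0 CPM in sgRosa and 36.8, 31.6 and 23.002 CPM in sgNr2f2. Its groups overlapped throughout, with replicates 1 and 2 of both groups high and sgRosa replicate 4 low, and the log2 fold change was 0.18 (95% confidence interval -0.77 to 1.13). Dhcr7, the final reductase, had 16.9, 11.5, 10.5 and 11.4 CPM in sgRosa and 9.51, 10.9 and 7.87 CPM in sgNr2f2. Only sgNr2f2 replicate 2 reached into the sgRosa range, and the log2 fold change was -0.42 (SE 0.39, adjusted p = 0.897).

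Msmo1, the methyl sterol oxidase, had 52.8, 64.5, 57.0 and 6.54 CPM in sgRosa and 23.1, 33.1 and 44.2 CPM in sgNr2f2. With sgRosa replicate 4 the groups overlapped, and without it they did not. Its log2 ratio was -0.44 (SE 0.65), and -0.80 (SE 0.29, 95% confidence interval -1.44 to -0.15, adjusted p = 0.354) without that library. Lss, lanosterol synthase, and Cyp51, lanosterol demethylase, had the same layout, with log2 fold changes of -0.63 (adjusted p = 0.453) and -0.35 (adjusted p = 0.635) without it.

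Without sgRosa replicate 4, 7 of the 33 genes had groups that did not overlap with sgNr2f2 lower: Mvk, Idi1, Lss, Cyp51, Msmo1, Stard4 and Elovl7. Over all genes the count was 1259, or 8.93%. No gene of the 33 passed the edgeR test in that fit, where 0% of 14096 genes passed, 11.3% of all genes had an unadjusted p under 0.05, and so did 2 of the 33, Srebf2 and Msmo1. The remaining sterol enzymes, named here with group means in CPM for sgRosa and sgNr2f2, overlapped in both fits. Sc5d had 74.9 ± 34.1 and 71.8 ± 14.3, Ebp had 17.7 ± 4.40 and 13.5 ± 1.7998, and Hsd17b7 had 12.4 ± 5.61 and 10.5 ± 4.36 (SD, n = 4 and 3). Nsdhl had 8.90 ± 3.99 and 9.57 ± 2.26, and Tm7sf2, the least abundant, had 2.35 ± 0.669 and 1.51 ± 0.948.

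**Figure D2:**
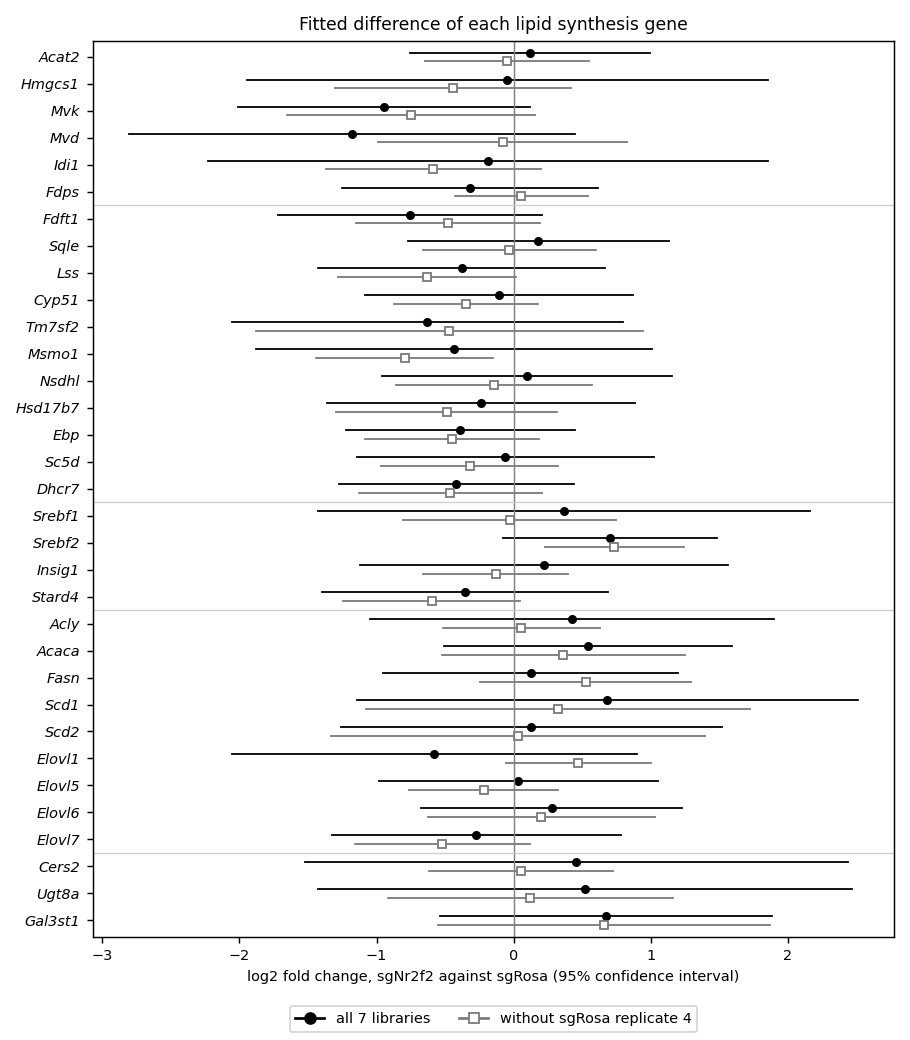
Fitted log2 fold change of sgNr2f2 against sgRosa for each of the 33 genes, with its 95% confidence interval. Filled points use all 7 libraries and open squares leave out sgRosa replicate 4. The squares of all 11 squalene and sterol genes lie left of 0. Only in the smaller fit is the interval of Srebf2 above 0 and that of Msmo1 below 0. Elovl1 changes side, as do Acat2, Fdps, Sqle, Nsdhl, Srebf1, Insig1 and Elovl5.

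Srebf2 was the one gene of the 33 with all sgNr2f2 libraries above all sgRosa libraries. It had 41.9, 39.4, 45.2 and 46.2 CPM in sgRosa and 65.8, 75.1 and 69.6 CPM in sgNr2f2. The 4 sgRosa libraries lay close together, sgRosa replicate 4 included, and below the lowest sgNr2f2 library. Such a layout with sgNr2f2 higher was found for 635 genes in all (4.41%). The mean was 43.2 ± 3.10 CPM (SD, n = 4) in sgRosa and 70.2 ± 4.70 CPM (n = 3) in sgNr2f2, and the log2 fold change was 0.70 (SE 0.35, 95% confidence interval -0.08 to 1.48, edgeR adjusted p = 0.868). The exact two-sided permutation p was 0.0286, the smallest possible here. It was not adjusted over genes and reads the same layout. Leaving out 1 library at a time gave log2 fold changes from 0.65 to 0.75. Without sgRosa replicate 4 it was 0.73 (SE 0.22, edgeR adjusted p = 0.281). DESeq2 on those 6 libraries called 1 of the 33 genes, Srebf2 (log2 fold change 0.76, adjusted p = 0.0374), among 372 genes (2.64%) called in all and 256 (1.82%) called higher. That fit was chosen after the data were seen. A miRNA gene, Mir33, lies within Srebf2 and was listed with 0 counts.

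Srebf1 had 17.5, 25.8, 11.5 and 0.545 CPM in sgRosa and 23.9, 15.5 and 14.3 CPM in sgNr2f2. sgRosa replicate 4 was near 0, and the other 6 libraries overlapped (log2 fold change 0.37, SE 0.81, and -0.03 without that library). Insig1 had 31.0, 35.2, 40.7 and 4.50 CPM in sgRosa and 34.6, 35.4 and 27.5 CPM in sgNr2f2. Again sgRosa replicate 4 was far below the rest and the groups overlapped, and the log2 fold change of 0.22 (SE 0.60) was -0.13 without it. Stard4, a soluble sterol carrier, had 81.5, 53.8, 59.4 and 24.4 CPM in sgRosa and 52.5, 44.7 and 31.4 CPM in sgNr2f2. Its sgNr2f2 libraries were all below sgRosa replicates 1 to 3 and above sgRosa replicate 4, so the log2 fold change of -0.35 (adjusted p = 0.926) was -0.60 (adjusted p = 0.48) without that library.

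Other genes of the same control circuit were taken from a list of 12 for SREBP control and cholesterol uptake, of which 11 were tested. Of these, 6 had a log2 fold change above 0 and 5 below, the median was 0.20, and 0 passed. The median was 0.030 without sgRosa replicate 4, and -0.078 with the summed level of the oligodendrocyte markers as a covariate, where 4 lay above 0 and 7 below. Scap had the smallest p of these. It had 16.8, 18.4, 12.1 and 4.50 CPM in sgRosa and 33.8, 30.6 and 19.5 CPM in sgNr2f2. Each sgNr2f2 library lay above each sgRosa library, with sgNr2f2 replicate 3 and sgRosa replicate 2 nearly touching. That layout was found for 4.41% of all genes, and the exact two-sided permutation test for Scap gave p = 0.0857. For Scap the log2 fold change was 1.10 (SE 0.49, adjusted p = 0.868), and 0.82 (adjusted p = 0.346) without sgRosa replicate 4.

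**Figure D3:**
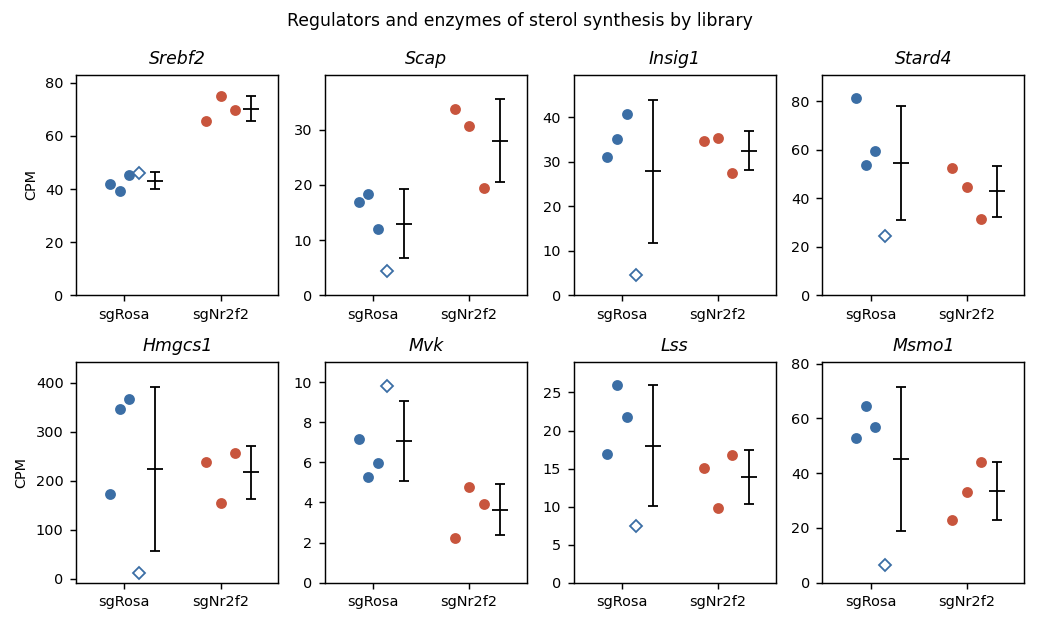
CPM of 4 regulators and carriers (top) and 4 mevalonate and sterol enzymes (bottom) by library, with the mean ± SD of each group drawn beside its points. Open diamonds are sgRosa replicate 4. The sgNr2f2 points of Srebf2 and Scap lie above all sgRosa points, those of Mvk lie below, and those of Hmgcs1, Lss and Msmo1 lie between the diamond and the highest sgRosa point.

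In the list of other sterol synthesis genes, 6 of 8 were tested, 5 lay below 0, the median was -0.26 and 0 passed (4 and -0.23 without sgRosa replicate 4). Pmvk, the kinase that follows Mvk, had 21.2, 34.1, 43.6 and 99.6 CPM in sgRosa and 40.6, 31.4 and 44.9 CPM in sgNr2f2. sgRosa replicate 4 was the high library, and the log2 fold change of -0.35 was 0.24 without it. For cholesterol export, esterification and the LXR receptors, 11 of 11 were tested, 8 lay below 0, the median was -0.38 and 0 passed. That direction turned without sgRosa replicate 4, where 6 of the 11 lay above 0 and the median was 0.26, and with the oligodendrocyte marker covariate 6 lay below 0 with a median of -0.030. Cyp46a1, the neuronal cholesterol 24-hydroxylase, had 195 CPM in sgRosa replicate 4 and 8.13 to 29.6 CPM in the other 6 libraries. Nr1h2, the LXR beta receptor, had 43.7, 48.4, 44.4 and 65.1 CPM in sgRosa and 60.4, 74.6 and 66.7 CPM in sgNr2f2. Only sgRosa replicate 4 reached the sgNr2f2 range, and the log2 fold change of 0.42 was 0.56 (adjusted p = 0.405) without it.

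Among the 9 fatty acid genes, 7 had a log2 fold change above 0 and 2 below, with a median of 0.13. Without sgRosa replicate 4 the counts were the same (median 0.20), but they were not fixed over the other fits. On library size alone 4 lay above 0 and 5 below (median -0.074), as they did without sgNr2f2 replicate 1 (median -0.068). Without sgRosa replicate 1, 5 lay above 0 and 4 below (median 0.13). Acly makes cytosolic acetyl-CoA from citrate, Acaca carboxylates it to malonyl-CoA and Fasn builds palmitate. Fasn had 15.99, 25.4, 15.9 and 44.0 CPM in sgRosa and 34.1, 16.1 and 32.3 CPM in sgNr2f2. sgRosa replicate 4 was highest of all 7 libraries, and sgNr2f2 replicate 2 lay with the lower sgRosa libraries. Its log2 fold change was 0.12 (SE 0.48, adjusted p = 0.976), and 0.53 (SE 0.34, adjusted p = 0.625) without sgRosa replicate 4. Acaca had 7.17, 15.6, 15.4 and 6.68 CPM in sgRosa and 21.3, 9.75 and 18.0 CPM in sgNr2f2. sgRosa replicates 1 and 4 and sgNr2f2 replicate 2 were the low libraries, and the groups overlapped (log2 fold change 0.54, SE 0.47, adjusted p = 0.893). Acly had 51.6 ± 32.6 CPM in sgRosa and 69.3 ± 1.01 CPM in sgNr2f2 (SD, n = 4 and 3), and only 6.27 CPM in sgRosa replicate 4. Without it the log2 ratio was 0.06.

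Scd1 and Scd2 are stearoyl-CoA desaturases, which make monounsaturated acyl chains. Scd1 had 442, 1651, 2069 and 159 CPM in sgRosa and 1949.5, 872 and 2377 CPM in sgNr2f2. Low and high libraries occurred in both groups: sgRosa replicates 4 and 1 and sgNr2f2 replicate 2 were the lowest. Its fitted difference was 0.68 in log2 (SE 0.82, 95% confidence interval -1.15 to 2.51, adjusted p = 0.919). Scd2 had 141, 468, 310.4 and 229 CPM in sgRosa and 461, 97.2 and 382 CPM in sgNr2f2. Here sgNr2f2 replicate 2 was lowest and sgRosa replicate 1 next, and the log2 fold change was 0.13 (SE 0.63). The paralogs are similar in sequence and the treatment of reads that fit both is not given in the sources used here, so their split is uncertain.

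The elongases lengthen acyl chains, Elovl6 from palmitate, Elovl5 on polyunsaturated chains, and Elovl1 and Elovl7 to very long chains. Elovl1 had 45.0, 47.9, 38.4 and 232 CPM in sgRosa and 68.9, 58.4 and 54.7 CPM in sgNr2f2. sgRosa replicate 4 was 4.51 times the median of the other 6 libraries, and the 3 sgNr2f2 libraries lay above sgRosa replicates 1 to 3. The log2 fold change was -0.58 (SE 0.67, adjusted p = 0.914) with all libraries and 0.47 (SE 0.23, adjusted p = 0.501) without that one. Srebf2 and Elovl1 were then the 2 of the 33 genes that did not overlap with sgNr2f2 higher, beside 1290 of all genes (9.15%). Elovl1 overlaps Cdc20 by 53 bases, and Cdc20 had 157 counts against 7193. Elovl7 had 71.8 ± 30.9 and 59.4 ± 13.0 CPM, Elovl5 had 63.2 ± 25.6 and 64.8 ± 7.54 CPM, and Elovl6 had 27.2 ± 4.59 and 32.9 ± 14.96 CPM in sgRosa and sgNr2f2 (SD, n = 4 and 3). The groups of all 3 overlapped over the 7 libraries.

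Of 19 further genes of fatty acid synthesis, elongation and desaturation, 16 were tested and 0 passed, with 7 above 0, 9 below and a median of -0.18. The counts were the same without sgRosa replicate 4, but the median was -0.017. Acacb, the mitochondrial acetyl-CoA carboxylase, had 12.2, 7.31, 11.5 and 5.59 CPM in sgRosa and 11.7, 19.4 and 14.2 CPM in sgNr2f2, which overlapped (log2 fold change 0.72, SE 0.43). Slc25a1, the citrate carrier, had 216 CPM in sgRosa replicate 4 against 26.5 to 44.0 CPM elsewhere. Slc25a1, Fasn and Elovl1 thus had their highest value in the library in which Acly and Scd1 had their lowest.

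The galactolipid genes act in sequence. Cers2 is the ceramide synthase for very long acyl chains, Ugt8a adds galactose to ceramide and Gal3st1 adds sulfate to make sulfatide. All 3 had log2 fold changes above 0 with a median of 0.52, which was 0.12 without sgRosa replicate 4. Ugt8a had 69.8, 154, 111 and 3.82 CPM in sgRosa and 180.1, 53.6 and 130.3 CPM in sgNr2f2. sgRosa replicate 4 was nearly devoid of it, at 0.0316 times the median of the others, and sgNr2f2 replicate 2 was the next lowest. Its log2 fold change was 0.52 (SE 0.88, adjusted p = 0.947), and 0.12 (SE 0.46) without sgRosa replicate 4. Gal3st1 had 3.70, 9.42, 7.01 and 6.41 CPM in sgRosa and 17.02, 3.98 and 10.7 CPM in sgNr2f2. Here sgRosa replicate 4 lay inside the range of the others, and the log2 fold change was 0.67 (SE 0.55, adjusted p = 0.888). Cers2 had 125, 155, 96.4 and 2.45 CPM in sgRosa and 157, 106 and 127 CPM in sgNr2f2. It was the gene of the 33 with the lowest ratio of sgRosa replicate 4 to the others (0.0194) apart from Idi1, and the remaining libraries overlapped (log2 fold change 0.46, SE 0.89, and 0.05 without that library). With the oligodendrocyte marker level as a covariate, 2 of the 3 galactolipid genes lay below 0.

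Of 20 further genes of sphingolipid and galactolipid metabolism, 18 were tested and 0 passed, with 10 above 0, 8 below and a median of 0.06. Without sgRosa replicate 4 the direction turned, to 7 above 0, 11 below and a median of -0.11, and the marker covariate also gave 7 above and 11 below (median -0.017). Sgms2, a sphingomyelin synthase, had 90.7, 45.6, 80.7 and 29.6 CPM in sgRosa and 78.5, 311 and 127 CPM in sgNr2f2. The groups overlapped at sgNr2f2 replicate 1, and sgNr2f2 replicate 2 was the highest (log2 fold change 1.48, SE 0.59, adjusted p = 0.868). Cers4, another ceramide synthase, had 74.2, 33.2, 41.8 and 146 CPM in sgRosa and 26.5, 43.2 and 33.1 CPM in sgNr2f2, with sgRosa replicate 4 highest and a log2 fold change of -1.11 (SE 0.56, adjusted p = 0.868) that was -0.54 without it.

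Many of these genes are known to be expressed by myelinating cells, and each was set against the summed CPM of the 18 oligodendrocyte markers over the 7 libraries. That sum spanned 17.6-fold, and 4.17-fold without sgRosa replicate 4. It is largely 2 myelin genes: Mbp made up 53.7 to 79.5% of it by library, and Mbp and Mobp together 89.7 to 95.6%. Only 2 of the 18 markers had the order of libraries of the sum, and 11 had their lowest level in sgRosa replicate 4. Scd1 had the order of the sum, with Pearson r = 0.992 (exact permutation p = 0.000198, the smallest that 7 libraries allow, and 0.00655 adjusted over the 33 relations computed). Spearman's rho was 1 (exact permutation p = 0.000397, adjusted 0.0131). Without the 2 libraries farthest from the median, sgRosa replicates 1 and 4, r was 0.992, and without sgRosa replicate 4 alone it was 0.997. With each of the 18 markers weighted alike (their mean log2 CPM, a measure added after the data were seen), r was 0.932 for Scd1 and its adjusted exact permutation p 0.0524, so the relation no longer passed. Per 1000 CPM of markers, Scd1 had 4.49, 5.18, 5.93 and 6.81 CPM in sgRosa and 5.89, 5.23 and 5.78 CPM in sgNr2f2, a 1.52-fold range where its own level spanned 14.9-fold. Both groups lay on one line, sgRosa replicate 4 included. The marker sum and the level of Scd1 share the library total and its scaling, and Scd1 ranked 34 of 14394 genes by r.

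Acaca also tracked the markers (r = 0.887, exact permutation p = 0.00198, adjusted 0.0327), though not by rank after adjustment (rho = 0.821, exact permutation p = 0.0341, adjusted 0.396). Its r was 0.867 without the 2 farthest libraries and 0.948 without sgRosa replicate 4, and its adjusted p lay above 0.05 when any library other than sgNr2f2 replicate 1 was left out. With the markers weighted alike, r was 0.944 for Acaca (adjusted exact permutation p = 0.0360) and 0.907 for Ugt8a (adjusted exact permutation p = 0.00655). Ugt8a (r = 0.95, adjusted exact permutation p = 0.0671) and Hmgcs1 (r = 0.94, adjusted exact permutation p = 0.0671) came next, and had r of 0.788 and 0.769 without sgRosa replicate 4. Scd2 and Gal3st1 had r of 0.487 and 0.499 with all libraries and 0.832 and 0.825 without that one. Cers2 went the other way, from 0.876 to 0.188, so its relation rested on sgRosa replicate 4. Dhcr7 ran against the markers, with r of -0.497, and -0.869 without that library. Without it the sign of r changed for 14 of the 33 genes: Idi1, Fdps, Fdft1, Sqle, Msmo1, Nsdhl, Hsd17b7, Srebf1, Stard4, Acly, Fasn, Elovl1, Elovl5 and Elovl7. For Fdps it went from -0.769 to 0.894, and for Elovl1 from -0.808 to 0.126.

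In all, 12 of the 33 genes had an r above 0.8, against 14.7% of all genes, and 5 without sgRosa replicate 4, against 10.5%. For Srebf2, r was 0.289 (exact permutation p = 0.588). With the marker level as a covariate, its log2 fold change was 0.74 (SE 0.28, edgeR adjusted p = 0.646), and 14 of the 17 sterol enzymes lay below 0 with a median of -0.43. Of all genes, 53.3% lay below 0 in that fit, with a median of -0.043. The part of cell makeup in the differences above was not tested beyond these fits.

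**Figure D4:**
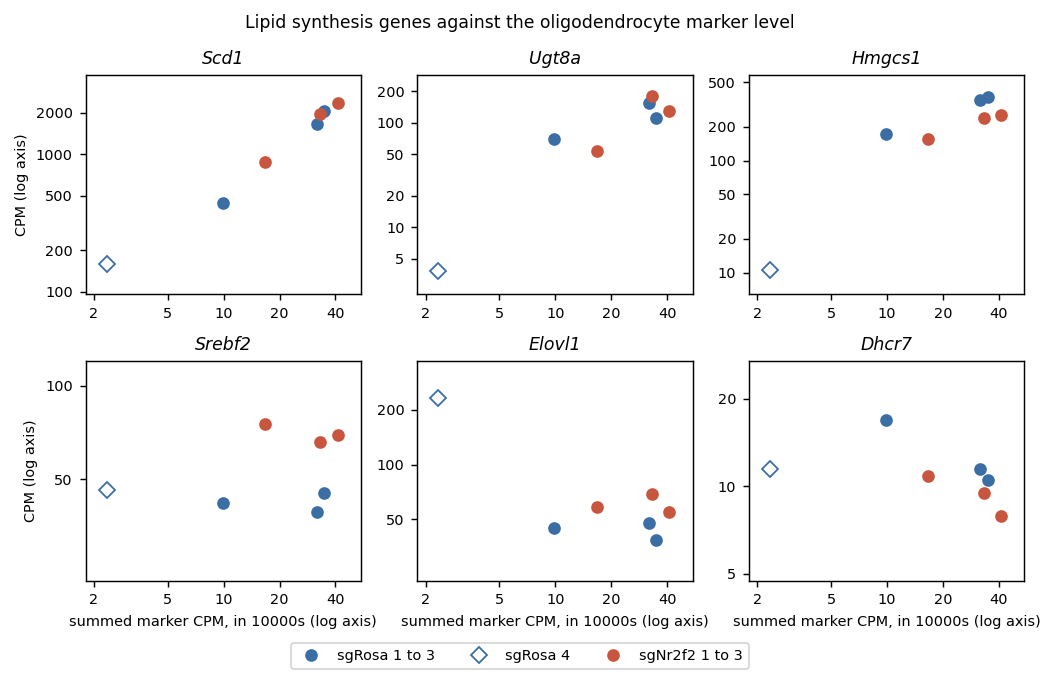
CPM of 6 genes against the summed CPM of 18 oligodendrocyte markers in each library, both on log axes, with the marker sum in the units of its axis label. Blue points are sgRosa replicates 1 to 3, open diamonds sgRosa replicate 4 and red points sgNr2f2. Scd1 lies on one line (r = 0.992), Ugt8a and Hmgcs1 follow the markers less closely without the diamond (r = 0.788 and 0.769), and the sgNr2f2 points of Srebf2 lie above its sgRosa points.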

How the data were processed

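RNA-seq libraries of 4 sgRosa and 3 sgNr2f2 samples were analysed, grouped by their titles. Raw counts, whole numbers by gene symbol with no normalization, were deposited in a table of the series and in 7 files of 1 library each, whose values were identical to it. Per the submitters' processing notes, the tools included STAR 2.7.5c, featureCounts 2.0.1, fastp 0.23.2 and edgeR 3.42.4, with build mm10. For the annotation, the strand setting and multiply mapping reads, the choice is not given in the sources used here, so overlapping genes and paralogs can have exchanged reads.

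Totals ran from 6266897 to 20928677 counts per library. No molecular identifiers are named, so floors cover counting error only.

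From the counts, edgeR 4.0.16 (R 4.3.3) was fitted to all genes kept by filterByExpr (14412), with TMM factors, the group as the only term, the quasi-likelihood test and Benjamini-Hochberg adjustment at 0.05. CPM used TMM-scaled totals, and log2 CPM a prior count of 2. DESeq2 1.42.0, limma 3.58.1 (voom), other scalings, no low-count filter, a replicate block, a marker covariate and leaving out each library were alternatives. Exact permutation tests were two-sided and enumerated every assignment of values to libraries. Exon lengths came from GENCODE, and promoters and overlaps from RefSeq tables on GRCm38.p6.

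The 33 genes, the pathway lists and the marker lists were chosen with earlier results of these data known. All 33 are named. Each library's value is given for Hmgcs1, Sqle, Srebf1, Srebf2, Insig1, Fasn, Scd1, Scd2, Ugt8a, Gal3st1, Cers2 and the 2 of each role with the smallest p, and up to 2 genes with the smallest p are named from each further pathway list. Some genes that this rule takes are not reported here.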

Additional observations from a re-analysis of the deposited data

Results flagged for a closer look

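Dixon's test at the 95% level was run on log2 CPM in the 33 groups of 4 sgRosa libraries. For 8 genes 1 library lay far from the other 3, and in all 8 that library was sgRosa replicate 4. Chance alone gives about 1 such group in 20, and the groups share this library. It was the low library for Acat2 (14.6 CPM), Idi1 (0 CPM), Msmo1 (6.54 CPM), Insig1 (4.50 CPM), Acly (6.27 CPM) and Cers2 (2.45 CPM). It was the high library for Fdps (57.9 CPM) and Elovl1 (232 CPM). The same library had the lowest total, the lowest share of oligodendrocyte markers (2.74%) and the highest share of erythroid genes (3.70%). The part of each in these values was not tested.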

How the results depend on the processing

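The counts of genes called depended on the tool. edgeR called 0 genes under TMM, RLE, upper-quartile and library-size scaling and without each library, DESeq2 called 7, and DESeq2 without sgRosa replicate 4 called 372. Of the 33 lipid genes, 1 (Srebf2) was called, in that last fit only. The median log2 fold change of the 33 stayed within -0.26 to 0.16 over these settings. Library size alone as the scaling moved the median of all genes from -0.11 to -0.33. Some log2 fold changes changed sign, and the cause was not tested. With library size alone as the scaling the log2 fold changes of opposite sign were Acat2 -0.12, Sqle -0.041, Nsdhl -0.19, Fasn -0.16, Scd2 -0.074 and Elovl5 -0.18. With limma-voom the log2 fold changes of opposite sign were Hmgcs1 0.91, Idi1 0.44, Cyp51 0.011, Sc5d 0.098 and Scd2 -0.013. With no filter on low counts the 1 log2 fold change of opposite sign was Elovl5 -0.0011. With upper-quartile scaling the 1 log2 fold change of opposite sign was Elovl5 -0.047. With the oligodendrocyte marker level as a covariate the log2 fold changes of opposite sign were Acat2 -0.12, Mvd 0.14, Fdps 0.035, Nsdhl -0.14, Srebf1 -0.18, Insig1 -0.14, Scd2 -0.26, Elovl1 0.50, Elovl5 -0.26, Cers2 -0.21 and Ugt8a -0.33. With that covariate and without sgRosa replicate 4 the log2 fold changes of opposite sign were Acat2 -0.098, Mvd 0.064, Fdps 0.0198, Nsdhl -0.049, Srebf1 -0.048, Insig1 -0.14, Scd2 -0.42, Elovl1 0.48, Elovl5 -0.22 and Ugt8a -0.18. With DESeq2 without sgRosa replicate 4 the log2 fold changes of opposite sign were Acat2 -0.025, Fdps 0.084, Sqle -0.0017, Nsdhl -0.11, Insig1 -0.10, Elovl1 0.50 and Elovl5 -0.19. With limma-voom without sgRosa replicate 4 the log2 fold changes of opposite sign were Acat2 -0.089, Fdps 0.055, Sqle -0.034, Nsdhl -0.16, Srebf1 -0.0065, Insig1 -0.14, Scd2 -0.093, Elovl1 0.47 and Elovl5 -0.21. Leaving out 1 library at a time, the ranges of genes that changed sign were Acat2 -0.13 to 0.30, Hmgcs1 -0.45 to 0.34, Idi1 -0.59 to 0.12, Fdps -0.46 to 0.055, Sqle -0.034 to 0.36, Cyp51 -0.35 to 0.096, Nsdhl -0.14 to 0.37, Hsd17b7 -0.61 to 0.0003, Sc5d -0.32 to 0.16, Srebf1 -0.029 to 0.87, Insig1 -0.13 to 0.49, Fasn -0.068 to 0.53, Scd2 -0.27 to 0.56, Elovl1 -0.81 to 0.47 and Elovl5 -0.22 to 0.23. Srebf2 and Mvk kept their direction in every fit run. So did Fdft1, Lss, Tm7sf2, Msmo1, Ebp, Dhcr7, Stard4, Acly, Acaca, Scd1, Elovl6, Elovl7 and Gal3st1. Of the relations with the marker level, 2 had an adjusted p under 0.05, and 8 had one when the residuals from the group means were used. Those residuals were permuted over all libraries although the group means had been taken out, so their p-values can be too small. Without 1 library, 1 to 2 relations had an adjusted p under 0.05. Over the fits without 1 library, r ran from -0.912 to 0.894 for Fdps and from -0.934 to 0.126 for Elovl1, 2 of the 14 genes whose r changed sign without sgRosa replicate 4. With the mean log2 CPM of the markers, 2 relations passed, Acaca and Ugt8a, and Scd1 did not.

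No label says that replicate numbers pair samples, and same-numbered libraries deviated together with correlations of -0.20, -0.26 and 0.09, so the numbers were not taken as pairs. With a replicate block edgeR called 0 genes and 0 of the 33, with a median of -0.13 over the 33. Only sgRosa has a replicate 4, so the block term takes up that library and it adds nothing to the fitted group difference. The block fit is therefore close to the fit without sgRosa replicate 4, where the median was also -0.13. In the block fit the log2 fold changes of opposite sign were Acat2 -0.087, Fdps 0.056, Sqle -0.032, Nsdhl -0.14, Insig1 -0.13, Scd2 -0.025, Elovl1 0.47 and Elovl5 -0.22.

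The depth of sgRosa replicate 4 limits genes near the floor, where 3 counts would be 0.409 CPM. Idi1 had 0 counts there and 3.45 to 7.28 CPM elsewhere, and the part of depth in that 0 was not tested. Fits that leave out this library with DESeq2, limma-voom or the covariate, and the mean of the markers, were chosen after seeing the data.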
